A study of Mus musculus with 12 samples.

Results

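Immediate early genes and heat shock genes were followed in basal epidermal cells around a healing wound of mouse tail skin. A list of 33 genes was used, 21 immediate early and 12 heat shock, and a gene was kept where the array annotation tied at least 1 probe set to it and to no other gene. That left 30 genes of the 17097 measured, 20 immediate early and 10 heat shock. No probe set was so tied to Hspa1a, Hspd1 or Zfp36, which were not analysed here. Each gene was read from its brightest probe set over the 12 arrays, and other probe sets are given beside it where they change a call in the LE.

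Adult CD1 mice received a punch wound of 3 mm in the tail, and skin was taken at D4 and D7 after wounding. The leading edge (LE) was the ring inside a 4 mm punch around the wound, the proliferative hub was the next ring inside a 6 mm punch, and control was unwounded skin far from it. The groups were thus the LE at D4, the hub at D4, control at D4, the LE at D7, the hub at D7 and control at D7, with 2 arrays in each. The labels give no allele, transgene or drug for any of them. Control skin came from wounded animals and is not skin of unwounded mice. Every array was made from a pool of 5 mice, so the spread between single animals was not measured, and whether the arrays of a pair came from separate pools is not stated in the methods. All groups went through the same digestion in 0.25% trypsin at 37 °C and the same sort, of 300 cells bright for α6-integrin and negative for CD34, and their cDNA was amplified for 25 cycles. Levels are therefore those at the end of the digestion and sort. Values are log2 intensities, on which a step of 1 is a doubling. A gene was called at an adjusted p under 0.05 in limma, a linear model with a shared estimate of the spread, after Benjamini-Hochberg correction over all 17097 genes.

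The keratinocyte genes Krt5 (11.93 to 12.72) and Krt14 (11.56 to 12.58) were high on all 12 arrays, as the basal label requires, and Cd34, used to exclude bulge cells, lay below the median of every array. Medians of the arrays were 5.4 to 5.47 at D4 and 4.25 to 4.28 at D7, which puts the days on different levels, and regions were compared only within a day. Paired arrays had an r of 0.988 to 0.993, taken across probe sets, and a probe set is no independent replicate. Their median absolute difference was 0.0846 to 0.201 for the 30 genes and 0.122 to 0.165 for all genes. For the immediate early genes it was 0.265 in the LE, 0.159 in the hub and 0.24 in control at D4. At D7 it was 0.08, 0.0678 and 0.0904. The model shares its estimate of the spread over both days. The widest gap was that of Gadd45a between the control arrays of D4, which read 8.44 and 9.65.

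Immediate early genes are switched on within minutes of growth factor, cytokine or mechanical signals, from promoters that need no new protein synthesis. Their products are short-lived transcription factors, such as the EGR and NR4A families, together with inhibitors that turn the same signals off again. Heat shock genes encode chaperones that keep proteins folded and are induced by heat shock factor 1 when misfolded protein accumulates. Both groups are known to respond to wounding of the epidermis and also to the dissociation of tissue into single cells. Transcript made in the skin and transcript made during digestion cannot be told apart here, and neither can fewer expressing cells and less RNA per cell.

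In the LE over control, 9 of the 20 immediate early genes were called lower at D4 and 10 at D7 (45% and 50%). Of the 10 heat shock genes, 1 was called lower at D4 and 2 at D7 (10% and 20%). At D4, 10 of the 30 genes were called lower in the LE and 1 higher, where 5.83% of all genes were called lower and 8.3% higher. Those lower were Egr1, Egr2, Nr4a1, Nr4a2, Myc, Csrnp1, Ier2, Btg2, Dusp1 and the heat shock gene Hspb8, and the 1 higher was Gadd45g. At D7, 12 were called lower and 2 higher, where 5.37% of all genes were called lower and 9.25% higher. These were the same genes without Egr2 and with Ppp1r15a, Nfkbia and Dnajb1 among those lower and Ier5 among those higher. Thus 9 genes were called lower on both days, 8 of them immediate early (all genes: 3.35%), and Gadd45g was called higher on both days (all genes: 5.21%). The D7 count of 14 rested in part on 1 array, since it fell without LE D7 replicate 1, a fit with 1 array left in that group. The count over all genes fell in that fit too. In every within-day comparison of regions, leaving out an array of either region lowered the count over all genes.

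Between the hub and control fewer genes differed. At D4 Nr4a1 and Nr4a2 were called lower in the hub and 0 higher (all genes: 0.105% lower, 0.222% higher), and at D7 Nr4a1 was called lower and 0 higher (all genes: 0.17% lower, 0.591% higher). The D4 count was 0 without hub D4 replicate 1 or without control D4 replicate 1, and the D7 count was 0 without any 1 of the 6 arrays of that day. Set against the hub, the LE had lower Nr4a1, Myc and Btg2 at D4 and lower Nr4a1 and Myc at D7. Among all genes, 2.15% were called lower in that comparison at D4 and 1.4% at D7. No listed gene was called higher in the LE by limma (all genes: 2.61% at D4 and 1.33% at D7). The D7 count was 0 without LE D7 replicate 1, hub D7 replicate 1 or hub D7 replicate 2.

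The listed genes were also counted by 3 other rules. At an unadjusted p under 0.05 in limma, 15 of the 30 genes were lower and 1 higher for the LE over control at D4 (all genes: 10.5% lower, 15.1% higher), with 18 lower and 5 higher at D7 (10.7% lower, 16.5% higher). For the hub over control there were 10 lower and 1 higher at D4 (4.07% lower, 6.9% higher) and 11 lower and 2 higher at D7 (4.38% lower, 8.28% higher). For the LE over the hub there were 6 lower and 1 higher on each day (7.46% lower and 8.86% higher at D4, 7.3% lower and 8.48% higher at D7). When genes were counted whose arrays did not overlap, 16 were lower and 5 higher for the LE over control at D4 (all genes: 20.2% lower, 29.2% higher), with 21 lower and 6 higher at D7 (23.5% lower, 31.5% higher). For the hub over control these were 15 lower and 2 higher at D4 (18% lower, 21.2% higher), with 21 lower and 6 higher at D7 (18.1% lower, 25.8% higher). For the LE over the hub they were 9 lower and 3 higher at D4 (18.5% lower, 25.2% higher), with 15 lower and 6 higher at D7 (21.5% lower, 25.7% higher). The rule of the methods asks for more than 2-fold in each replicate, and for the LE over control Nr4a1 and Myc met it at D4 and Nr4a1 at D7, each lower (all genes: 1.56% lower and 2.26% higher at D4, 1.51% lower and 1.83% higher at D7). Nr4a1 also met it for the LE over the hub at D4 (0.702% lower, 1.08% higher), and 0 genes did at D7 (0.562% lower, 0.597% higher) or for the hub over control (0.0877% lower and 0.357% higher at D4, 0.181% lower and 0.328% higher at D7).

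**Figure D1:**
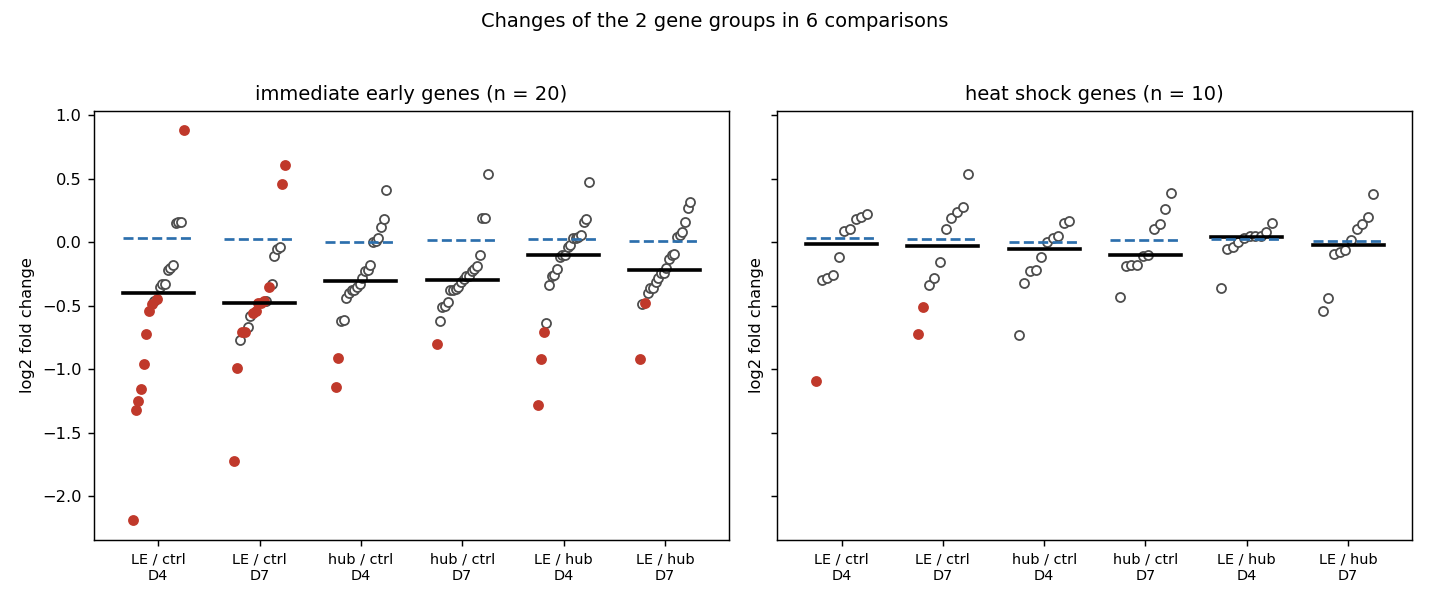
Log2 fold change of every measured gene in the 6 comparisons, for the 20 immediate early genes (left) and the 10 heat shock genes (right). Points are genes sorted by value, filled where called, the black bar is the median of the group and the dashed line the median of all 17097 genes. The black bar of the immediate early genes lies at -0.40 and -0.48 for the LE over control, and that of the heat shock genes at -0.02 and -0.03.

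The difference between the 2 gene groups is seen in the plot of log2 fold changes by gene group. Over the 20 immediate early genes the median log2 fold change of the LE over control was -0.40 at D4 and -0.48 at D7, against 0.03 and 0.02 over all genes. For the hub over control it was -0.30 on both days, and for the LE over the hub -0.10 at D4 and -0.22 at D7. Medians of the 10 heat shock genes lay between -0.10 and 0.04 in all 6 comparisons. The groups of arrays also stood in order. At D4, 8 genes had both LE arrays below both hub arrays and both hub arrays below both control arrays (all genes: 4.41%), and at D7 12 genes did (all genes: 5.18%). Of these, 7 were in that order on both days, namely Egr1, Nr4a1, Myc, Ier2, Btg2, Dusp1 and Hspb8. The share of all genes in that order on both days was not counted. Of the 7, Nr4a1, Myc and Btg2 passed for the LE over the hub on either day, and the others did not. For Ier2 at D4 that step was -0.10 (adjusted p = 0.807 in limma). In the reverse order were Gadd45g at D4 (all genes: 6.78%) and Ier5 and Hspa8 at D7 (all genes: 9.43%). The order holds arrays of 3 regions that were compared in pairs, and the comparisons with the LE and with the hub share their control arrays.

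In the LE, Nr4a1 had the largest change of the listed genes on both days. It encodes NUR77, an orphan nuclear receptor that is among the fastest induced genes in many cell types. At D4 it read 8.81 and 9.16 in the LE, 10.18 and 10.35 in the hub, and 11.21 and 11.14 in control. No arrays of the 3 regions overlapped, and the LE lay at 21.8% of the control level, at a log2 ratio of -2.19 (SE 0.13, adjusted p = 1.71e-05). At D7 the arrays read 8.01 and 8.19 in the LE, 9.02 and 9.03 in the hub, and 9.82 and 9.82 in control. Again the regions did not overlap, and the LE lay at 30.4% of control, at a log2 ratio of -1.72 (SE 0.13, adjusted p = 6.45e-05). Among all 17097 genes its value for the LE over control ranked 49 from the lowest at D4 and 92 at D7. The LE was also below the hub, at a log2 ratio of -1.28 on D4 (SE 0.13, adjusted p = 0.000722) and -0.92 at D7 (SE 0.13, adjusted p = 0.00862). The hub in turn stood at 53.2% of control at D4 (log2 fold change -0.91, SE 0.13, adjusted p = 0.0267) and at 57.6% at D7 (log2 fold change -0.80, SE 0.13, adjusted p = 0.0312). Both calls against control in the LE held in all 12 fits without 1 array, with adjusted p up to 0.000199 at D4 and 0.00175 at D7. The LE difference from the hub at D7 was lost without LE D7 replicate 1 (adjusted p = 0.0849), hub D7 replicate 1 (adjusted p = 0.0568) or hub D7 replicate 2 (adjusted p = 0.0713). Calls for the hub over control were lost in 8 fits at D4 and 6 at D7, and the adjusted p was 0.237 without hub D4 replicate 1 and 0.228 without hub D7 replicate 2.

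**Figure D2:**
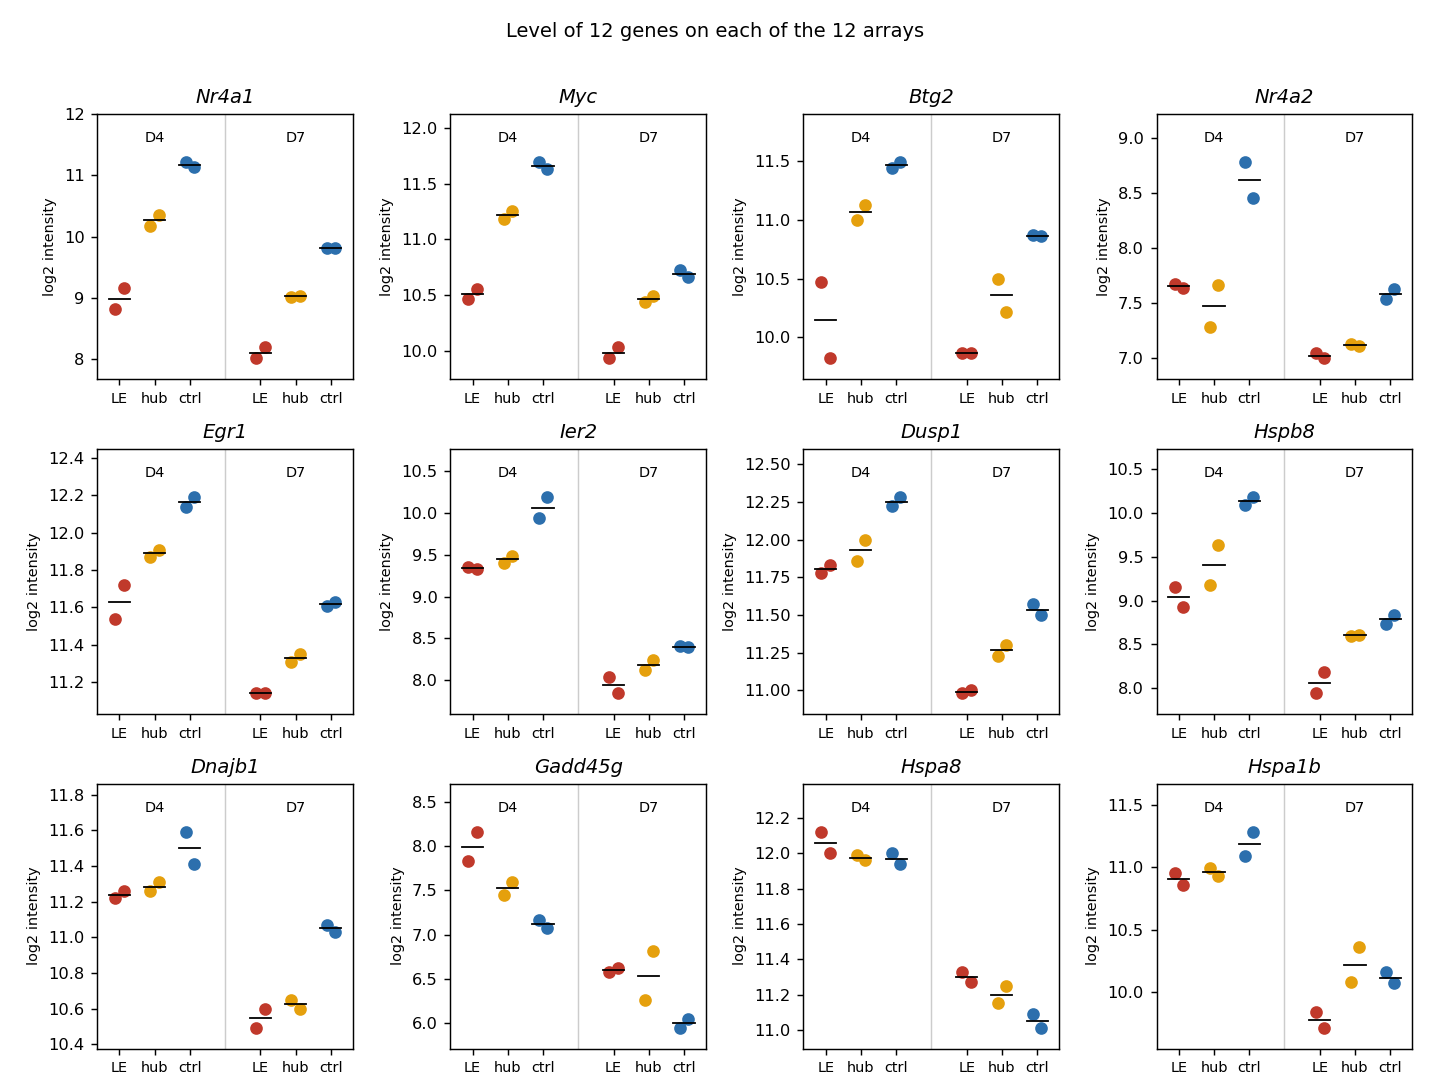
Log2 intensity of 12 of the genes on each array, with the LE, the hub and control skin from left to right at D4 and then at D7. Points are single arrays and the bar is the mean of the 2 arrays of a group. Nr4a1 steps up from LE to hub to control on both days, and Hspa8 lies between 11.94 and 12.12 at D4.

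Its relative Nr4a2, which encodes NURR1, stood apart in the order of the regions at D4. At D4 it read 7.68 and 7.64 in the LE, 7.29 and 7.67 in the hub, and 8.78 and 8.46 in control. The LE and the hub overlapped and both lay below control, with log2 fold changes of -0.96 for the LE (SE 0.14, adjusted p = 0.00201) and -1.14 for the hub (SE 0.14, adjusted p = 0.0158). The interval of the LE over the hub ran from -0.14 to 0.50. The hub call was lost without hub D4 replicate 1 (adjusted p = 0.152) and without control D4 replicate 1 (adjusted p = 0.0533). At D7 the arrays read 7.05 and 7.0 in the LE, 7.13 and 7.11 in the hub, and 7.54 and 7.63 in control, in the order of Nr4a1. The LE over the hub was -0.10 at D7 and did not pass. It was 0.03 with probe sets averaged, and the other probe sets gave -0.04 to 0.18. There the LE over control was -0.56 (SE 0.14, adjusted p = 0.028), a call lost without either LE D7 array or either control D7 array (adjusted p = 0.0811 to 0.136). Nr4a2 has 5 probe sets, and the other 4 gave LE over control values of -1.47 to -0.02 at D4 and -1.01 to -0.20 at D7. Of those only the second brightest passed for the LE at D4, with an adjusted p of 0.0498 over all probe sets. For the hub over control at D4 the other 4 gave -1.94 to -0.17, and none passed (adjusted p = 0.126 to 0.793 over all probe sets). That hub call was also lost with probe sets averaged and with the arrays of that day only (adjusted p up to 0.208).

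The promoters of both NR4A genes hold a match to the GC-rich site of the EGR factors, and the matched stretches are shown. A link between the site and the calls was not tested. Sequences are those of RefSeq on GRCm38.p6, each a stretch of 60 bases written 5′ to 3′ on the strand of its gene, with the matched letters in capitals. That of Nr4a1 is chr15:101266756-101266815 on the plus strand, from 90 to 31 bases before the start of the gene, and that of Nr4a2 is chr2:57124044-57124103 on the minus strand, from 100 to 41 bases before its start.
Nr4a1: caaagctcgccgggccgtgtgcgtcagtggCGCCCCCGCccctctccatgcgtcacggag
Nr4a2: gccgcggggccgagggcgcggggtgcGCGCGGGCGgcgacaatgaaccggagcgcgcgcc
The motif searched was GCGNGGGCG on both strands, in the 250 bases before each start of a gene. Of the 22 measured genes of the list with a RefSeq promoter, 6 held it (27.3%): Nr4a1, Nr4a2, Btg2, Gadd45b, Dnaja1 and Hspb8. It was present in 5.33% of all 27025 genes with a promoter sequence and in 8.67% of the 13605 of them that the array annotation names. Gadd45b and Dnaja1, which hold it too, were called in none of the 6 comparisons. A match is a description of the letters and not of binding.

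The EGR genes themselves encode zinc finger transcription factors. Egr1, the founding gene of the family, read 11.54 and 11.72 in the LE, 11.87 and 11.91 in the hub, and 12.14 and 12.19 in control at D4. At D7 it read 11.14 and 11.14 in the LE, 11.31 and 11.35 in the hub, and 11.61 and 11.63 in control. The 3 regions did not overlap on either day, and the LE was lower than control by steps of similar size, -0.54 at D4 (SE 0.10, adjusted p = 0.00487) and -0.48 at D7 (SE 0.10, adjusted p = 0.00876). Without LE D7 replicate 1 or control D7 replicate 2 the D7 call was lost, with adjusted p of 0.0554 and 0.0502. Egr2, which also acts in myelination of nerves, read 8.91 and 9.32 in the LE, 10.08 and 9.44 in the hub, and 10.73 and 10.01 in control at D4. Its LE arrays lay below the other 4, and the log2 fold change over control was -1.25 (SE 0.25, adjusted p = 0.00974), which its second probe set gave as -1.31 (adjusted p = 0.0173 over all probe sets). That call was lost without LE D4 replicate 1 (adjusted p = 0.0715) and without control D4 replicate 1 (adjusted p = 0.0516). At D7 Egr2 had a value of -0.77 (adjusted p = 0.0738). Egr3 did not pass, with -0.46 at D4 (adjusted p = 0.142) and -0.04 at D7 (adjusted p = 0.925) in the LE over control.

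Myc, a transcription factor that drives growth and ribosome production, was among the steadiest of the calls. At D4 it read 10.46 and 10.55 in the LE, 11.18 and 11.25 in the hub, and 11.69 and 11.63 in control. The D7 arrays read 9.93 and 10.03 in the LE, 10.44 and 10.49 in the hub, and 10.72 and 10.66 in control. The regions did not overlap on either day. The LE lay at 44.9% of control at D4 (log2 fold change -1.16, SE 0.10, adjusted p = 7.29e-05) and at 61.2% at D7 (log2 fold change -0.71, SE 0.10, adjusted p = 0.00127), and both calls held in each of the 12 fits without 1 array. It was also lower in the LE when set against the hub, by -0.71 at D4 (SE 0.10, adjusted p = 0.00311) and -0.48 at D7 (SE 0.10, adjusted p = 0.0311). The D7 difference from the hub failed in 6 of the 12 fits, namely those that left out an array of D7, with adjusted p up to 0.194 without LE D7 replicate 1. For the hub over control the values of -0.44 at D4 (adjusted p = 0.101) and -0.23 at D7 (adjusted p = 0.364) did not pass. Csrnp1, a nuclear protein rich in cysteine and serine, read 9.76 and 9.60 in the LE, 10.02 and 9.88 in the hub, and 10.19 and 10.15 in control at D4. On D7 the levels were 8.4 and 8.70 in the LE, 8.61 and 8.75 in the hub, and 8.97 and 9.09 in control. Its LE arrays were below control on both days and overlapped the hub at D7, with log2 fold changes over control of -0.49 (SE 0.13, adjusted p = 0.0284) and -0.48 (SE 0.13, adjusted p = 0.0309). These calls were lost without any 1 LE or control array of D4 (adjusted p up to 0.139) and, at D7, without LE replicate 1 or either control array (adjusted p up to 0.212).

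The 3 immediate early response genes, named for their rapid induction, went different ways. Ier2, a nuclear protein, read 9.35 and 9.33 in the LE, 9.40 and 9.49 in the hub, and 9.94 and 10.19 in control at D4. At D7 it read 8.04 and 7.84 in the LE, 8.12 and 8.24 in the hub, and 8.41 and 8.39 in control. No regions overlapped, and the LE over control was -0.72 at D4 (SE 0.12, adjusted p = 0.00309) and -0.46 at D7 (SE 0.12, adjusted p = 0.0294). The D7 call was lost without any 1 LE or control array of that day (adjusted p = 0.0564 to 0.165). Ier5 was called higher in the LE at D7, where it read 3.93 and 3.91 in the LE, 3.49 and 3.81 in the hub, and 3.44 and 3.48 in control, which gave 0.46 on the log2 scale (SE 0.12, adjusted p = 0.0299). However, Ier5 was dim, below the median of every array, and the call was lost without any 1 LE or control array of D7 (adjusted p = 0.0981 to 0.13). At D4 its LE over control value was 0.16 (adjusted p = 0.477). Ier3, which modulates cell death, did not pass, with LE over control values of 0.16 at D4 (adjusted p = 0.721) and -0.11 at D7 (adjusted p = 0.798).

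**Figure D3:**
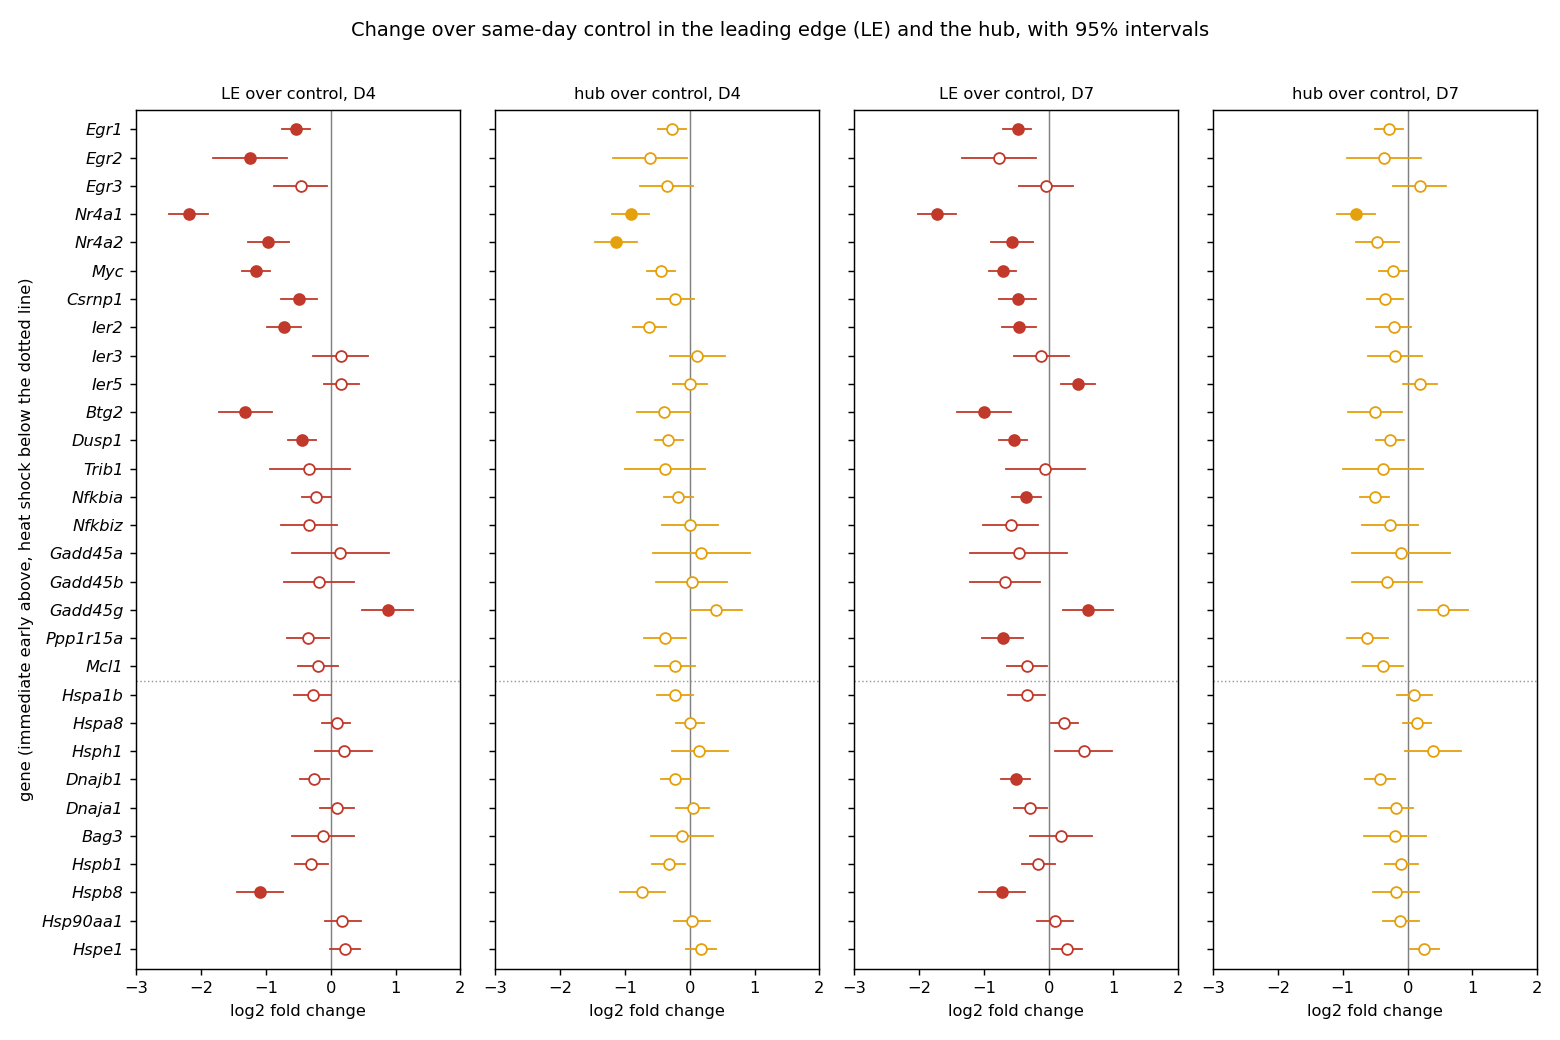
Log2 fold change of the 30 genes over control of the same day, for the LE (red) and the hub (yellow) at D4 and at D7, with 95% intervals as lines. Filled points were called, and the dotted line parts immediate early genes (above) from heat shock genes (below). Nr4a1 lies furthest left in the LE, at -2.19 and -1.72, and Gadd45g furthest right at D4, at 0.88.

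Among the feedback regulators, Btg2 and Dusp1 were lower in the LE on both days. BTG2 restrains the cell cycle and brings the deadenylase complex to mRNA. At D4 it read 10.47 and 9.82 in the LE, 11 and 11.13 in the hub, and 11.44 and 11.49 in control. The D7 values were 9.87 and 9.87 in the LE, 10.50 and 10.22 in the hub, and 10.87 and 10.86 in control. Regions did not overlap, and the LE lay at 40.0% of control at D4 (log2 fold change -1.32, SE 0.19, adjusted p = 0.00135) and at 50.2% at D7 (log2 fold change -0.99, SE 0.19, adjusted p = 0.00652). The second probe set of Btg2 gave -1.27 and -1.25 (adjusted p = 0.000219 and 0.000305 over all probe sets). Against the hub the LE was lower at D4 by -0.92 (SE 0.19, adjusted p = 0.0218), and the second probe set gave -0.95. At D7 the second probe set passed against the hub too, with -0.73 (adjusted p = 0.0197 over all probe sets), where the brightest gave -0.49. The D4 call was lost without LE D4 replicate 2 (adjusted p = 0.0522), hub D4 replicate 1 (adjusted p = 0.0615) or hub D4 replicate 2 (adjusted p = 0.141). DUSP1, a phosphatase that switches off MAP kinases, had smaller steps. Its transcript read 11.78 and 11.83 in the LE, 11.86 and 12 in the hub, and 12.22 and 12.28 in control at D4. At D7 its levels were 10.98 and 11 in the LE, 11.23 and 11.30 in the hub, and 11.57 and 11.50 in control. The regions did not overlap, and the LE over control was -0.45 at D4 (SE 0.10, adjusted p = 0.0123) and -0.54 at D7 (SE 0.10, adjusted p = 0.00502). At D4 that call was lost without LE D4 replicate 1 (adjusted p = 0.0639) and without control D4 replicate 2 (adjusted p = 0.071). Trib1, an adaptor for protein degradation, read 10.02 and 9.39 in the LE, 9.93 and 9.37 in the hub, and 10.33 and 9.74 in control at D4. Its paired arrays lay further apart than the means of the regions, and it did not pass, with -0.33 at D4 (adjusted p = 0.557) and -0.05 at D7 (adjusted p = 0.942).

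Btg2 and Dusp1, with Ppp1r15a, were the genes of the list whose promoter held the palindrome TGACGTCA, the full cAMP response element, and their stretches are printed for that shared site. The coordinates on GRCm38.p6 are chr1:134079286-134079345 for Btg2, chr17:26508583-26508642 for Dusp1 and chr7:45526269-45526328 for Ppp1r15a, all on the minus strand, and capitals mark the element.
Btg2: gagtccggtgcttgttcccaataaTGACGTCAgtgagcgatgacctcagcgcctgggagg
Dusp1: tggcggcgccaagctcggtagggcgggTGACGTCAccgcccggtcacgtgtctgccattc
Ppp1r15a: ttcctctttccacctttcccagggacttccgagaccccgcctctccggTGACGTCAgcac
The element lies 166 to 159 bases before the start of Btg2, 143 to 136 before that of Dusp1 and 12 to 5 before that of Ppp1r15a. Those 3 genes are 13.6% of the 22 searched, where 1.77% of all 27025 genes and 2.52% of the 13605 named by the array held it. Btg2 and Dusp1 were called lower in the LE on both days and Ppp1r15a at D7 only, where 12 of the 30 listed genes were called lower. Any part of the element in those calls was not tested. The AP-1 site TGANTCA was in 2 of the 22 (9.09%, all genes 7.82%), Csrnp1 and Bag3, and the CArG box of serum response factor in 1, Egr2 (4.55%, all genes 1.62%). The site AAAGGTCA, which NR4A receptors bind, was in 1, Hspe1 (4.55%, all genes 1.55%). No RefSeq promoter was at hand for Egr1, Egr3, Myc, Trib1, Nfkbiz, Ier2, Hspa8 and Hsp90aa1.

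Ppp1r15a encodes GADD34, the subunit that directs protein phosphatase 1 to eIF2α and restores translation after stress. At D7 it read 6.66 and 6.75 in the LE, 6.78 and 6.80 in the hub, and 7.40 and 7.43 in control. Here the hub lay nearer to the LE than to control, and the LE over control was -0.71 (SE 0.14, adjusted p = 0.00932), while the hub over control was -0.62 (SE 0.14, adjusted p = 0.0967). The LE call was lost without LE D7 replicate 1 (adjusted p = 0.0716) and without control D7 replicate 2 (adjusted p = 0.0544). At D4 its values were -0.35 for the LE (adjusted p = 0.152) and -0.38 for the hub (adjusted p = 0.336).

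Gadd45g was called higher in the LE on both days, and with Ier5 at D7 it was an exception among the called immediate early genes. It belongs to a family of small proteins that bind the kinase MAP3K4 and cell cycle regulators under stress. At D4 it read 7.83 and 8.16 in the LE, 7.45 and 7.60 in the hub, and 7.16 and 7.07 in control. The 3 regions did not overlap, and the LE lay at 184% of control, at a log2 ratio of 0.88 (SE 0.17, adjusted p = 0.00848), a call lost without LE D4 replicate 2 (adjusted p = 0.056). The D7 arrays read 6.58 and 6.62 in the LE, 6.26 and 6.81 in the hub, and 5.94 and 6.05 in control. There both LE arrays fell between the hub arrays and above control, with 0.61 over control (SE 0.17, adjusted p = 0.044). Of 12 fits that each left out 1 array, 8 lost that call, with an adjusted p of 0.178 without control D7 replicate 1. Its relatives did not pass, and for Gadd45a the arrays disagreed widely, with 9.44 and 8.96 in the LE, 9.0 and 9.44 in the hub, and 8.44 and 9.65 in control at D4. Gadd45b had LE over control values of -0.18 at D4 (adjusted p = 0.754) and -0.67 at D7 (adjusted p = 0.0993).

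The NF-κB inhibitors are themselves targets of NF-κB. Nfkbia encodes IκBα, which holds NF-κB in the cytoplasm. On D7 the levels were 10.85 and 10.74 in the LE, 10.65 and 10.62 in the hub, and 11.15 and 11.14 in control. In this gene the hub was the lowest region, and the LE over control was -0.35 (SE 0.10, adjusted p = 0.0453) while the hub over control was -0.51 (SE 0.10, adjusted p = 0.0589). The LE call was the least stable of all, since 10 of 12 fits that left out 1 array lost it, with an adjusted p of 0.195 without LE D7 replicate 2. Nfkbiz, a nuclear relative induced by interleukin signals in keratinocytes, did not pass by its brightest probe set at D4 (-0.33, adjusted p = 0.34) or D7 (-0.58, adjusted p = 0.0721). Its second probe set passed on both days, with -0.61 and -0.82 (adjusted p = 0.043 and 0.0118 over all probe sets), and the third did at D7. The anti-apoptotic gene Mcl1 was similar, with -0.20 at D4 (adjusted p = 0.445) and -0.33 at D7 (adjusted p = 0.141) by the brightest probe set and -0.61 and -0.55 by the third (adjusted p = 0.0109 and 0.0181 over all probe sets). The second probe set of Mcl1 passed at D7, with -0.46 (adjusted p = 0.0331).

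**Figure D4:**
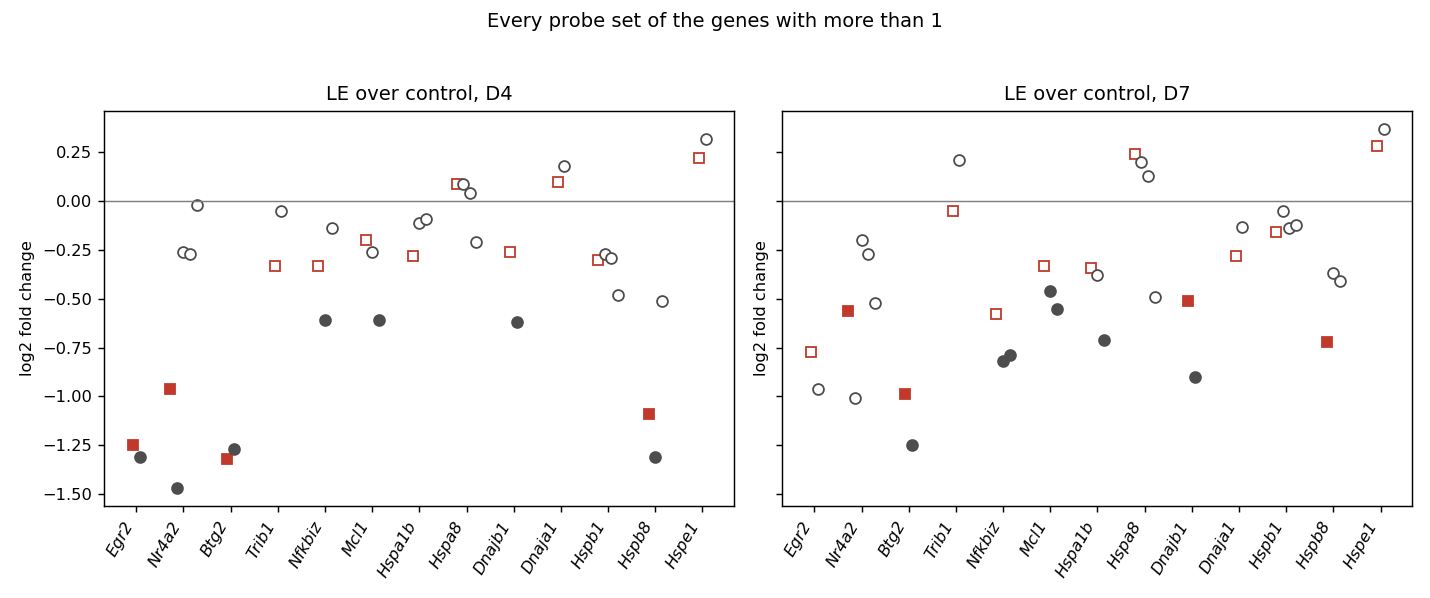
Log2 fold change of the LE over control at D4 and D7 for every probe set of the 13 genes with more than 1. Squares are the brightest probe set, circles the others in order of brightness, and filled symbols had an adjusted p under 0.05 over all probe sets. The 2 probe sets of Btg2 lie at -1.32 and -1.27 at D4, and those of Nr4a2 spread from -1.47 to -0.02 at D4.

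Agreement between probe sets is drawn in the plot of every probe set. For the LE over control, 12 of the 13 genes with several probe sets had 1 sign in all of them at D4, Hspa8 being the exception, and 11 did at D7, where Hspa8 and Trib1 were mixed. For the other 17 genes there is a single probe set and no such check.

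Of the 10 heat shock genes measured, Hspb8 was called lower in the LE on both days and Dnajb1 at D7. That is 10% lower at D4 and 20% at D7 (all genes: 5.83% and 5.37%), with 0 higher (all genes: 8.3% and 9.25%). None was called in the hub over control (all genes: 0.328% at D4 and 0.76% at D7) or in the LE over the hub (4.76% and 2.73%). Arrays of the LE and control did not overlap in 4 lower and 3 higher genes at D4 (all genes: 20.2% lower, 29.2% higher). At D7 there were 5 lower and 4 higher (23.5% lower, 31.5% higher). At an unadjusted p under 0.05 in limma, 4 of the 10 were lower and 0 higher for the LE over control at D4 (40%, all genes 10.5% lower and 15.1% higher), with 4 lower and 3 higher at D7 (40% and 30%, all genes 10.7% and 16.5%). For the hub over control 2 were lower and 0 higher at D4 (all genes: 4.07% lower, 6.9% higher), with 1 lower and 1 higher at D7 (4.38% lower, 8.28% higher). For the LE over the hub 1 was lower and 0 higher at D4 (7.46% lower, 8.86% higher), with 2 lower and 0 higher at D7 (7.3% lower, 8.48% higher). Hspb8, a small heat shock protein that works with BAG3 to send misfolded protein to autophagy, read 9.16 and 8.93 in the LE, 9.18 and 9.64 in the hub, and 10.09 and 10.18 in control at D4. At D7 it read 7.94 and 8.18 in the LE, 8.60 and 8.61 in the hub, and 8.73 and 8.84 in control. The regions did not overlap on either day. The LE lay at 46.9% of control at D4 (log2 fold change -1.09, SE 0.16, adjusted p = 0.00152) and at 60.6% at D7 (log2 fold change -0.72, SE 0.16, adjusted p = 0.0134). The D7 call was lost without LE D7 replicate 1 (adjusted p = 0.107) and without control D7 replicate 2 (adjusted p = 0.0824), and the second probe set gave -1.31 at D4 (adjusted p = 0.00153 over all probe sets) and -0.37 at D7 (adjusted p = 0.25). The third probe set of Hspb8 did not pass, with -0.51 at D4 (adjusted p = 0.0618) and -0.41 at D7 (adjusted p = 0.127). Its partner Bag3 did not pass, with -0.12 at D4 (adjusted p = 0.829) and 0.19 at D7 (adjusted p = 0.667). Dnajb1, the J-domain protein that hands clients to HSP70, read 10.49 and 10.60 in the LE, 10.65 and 10.60 in the hub, and 11.07 and 11.03 in control at D7. Its LE and hub arrays met at 10.60 and both regions lay below control, with -0.51 for the LE (SE 0.10, adjusted p = 0.00873) and -0.43 for the hub (SE 0.10, adjusted p = 0.105). The second probe set of Dnajb1 gave -0.62 at D4 and -0.90 at D7 for the LE (adjusted p = 0.0108 and 0.00185 over all probe sets), whereas the brightest gave -0.26 at D4 (adjusted p = 0.131). Without LE D7 replicate 1 or control D7 replicate 1 the D7 call was lost (adjusted p = 0.0718 and 0.0531).

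The other measured chaperones of the list did not pass by their brightest probe set. Hspa1b, the stress-inducible HSP70, read 10.95 and 10.86 in the LE, 10.99 and 10.93 in the hub, and 11.09 and 11.28 in control at D4. The D7 values were 9.84 and 9.71 in the LE, 10.08 and 10.36 in the hub, and 10.16 and 10.07 in control. Its LE arrays were the lowest on both days except for an overlap with the hub at D4, and the LE over control was -0.28 (95% interval -0.56 to 0.00, adjusted p = 0.187) and -0.34 (95% interval -0.62 to -0.06, adjusted p = 0.102). The third probe set of Hspa1b passed at D7, with -0.71 (adjusted p = 0.0432 over all probe sets). Hspa1a is nearly identical in sequence, so this probe set may read both genes. Hspa8, the constitutive HSP70, read 12.12 and 12 in the LE, 11.99 and 11.96 in the hub, and 12 and 11.94 in control at D4, and the LE over control was 0.09 (95% interval -0.13 to 0.30). At D7 it was 0.24 (95% interval 0.03 to 0.46, adjusted p = 0.135). Its dimmest probe set had the opposite sign, with -0.21 at D4 and -0.49 at D7 (adjusted p = 0.652 and 0.174 over all probe sets). Hsph1, the HSP110 that recycles HSP70, had 0.20 at D4 (adjusted p = 0.627) and 0.54 at D7 (adjusted p = 0.103). Values for Hsp90aa1, the inducible HSP90, were 0.18 (adjusted p = 0.433) and 0.10 (adjusted p = 0.704), and those for Hspe1, the mitochondrial cochaperonin, 0.22 (adjusted p = 0.211) and 0.28 (adjusted p = 0.102). Hspb1, the small heat shock protein abundant in epidermis, had -0.30 at D4 (adjusted p = 0.13) and -0.16 at D7 (adjusted p = 0.447), and Dnaja1 had 0.10 (adjusted p = 0.708) and -0.28 (adjusted p = 0.154).

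Heat shock elements, the inverted repeats that heat shock factor 1 reads, are shown for Hspa1b and Hspb1, classical targets whose windows held a match. Whether the element bears on the calls was not tested. The stretches are chr17:34959313-34959372 on the minus strand and chr5:135887785-135887844 on the plus strand of GRCm38.p6, with each GAANNTTC in capitals.
Hspa1b: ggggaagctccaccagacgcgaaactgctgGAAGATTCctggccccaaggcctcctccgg
Hspb1: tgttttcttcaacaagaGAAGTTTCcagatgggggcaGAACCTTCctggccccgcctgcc
The element begins 104 bases before the start of Hspa1b, and Hspb1 has a pair, which begin 117 and 97 bases before its start. It was found in 4 of the 22 genes (18.2%), Hspa1b, Dnaja1, Hspb1 and Hspe1, against 7.73% of all 27025 genes and 6.67% of the 13605 named by the array. No match says only that these letters are not in the window searched.

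Between D4 and D7 none of the 30 genes had a change in its difference that passed, in limma, for the LE over control (all genes: 0.00585% higher, 0.0234% lower), the hub over control (0% in each direction) or the LE over the hub (0% higher, 0.0175% lower). At an unadjusted p under 0.05 there were 2 higher and 1 lower for the LE over control (all genes: 3.98% higher, 3.84% lower), 3 higher and 1 lower for the hub over control (2.49% higher, 2.08% lower) and 0 for the LE over the hub (2.32% higher, 2.8% lower). The D7 minus D4 value for the LE over control was 0.45 for Myc (SE 0.13, 95% interval 0.14 to 0.75, adjusted p = 0.439) and 0.48 for Nr4a1 (SE 0.19, 95% interval 0.06 to 0.89, adjusted p = 0.578), so both were closer to control at D7 by a step that did not pass. For the hub over control it was 0.67 for Nr4a2 (SE 0.20, 95% interval 0.21 to 1.13, adjusted p = 0.999).

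Wider lists of the same pathways, chosen with earlier results of these data known, were counted in the same fit. Of 65 measured immediate early and growth factor response genes outside the 30, 25 were called lower and 5 higher in the LE over control at D4 (38.5% and 7.69%, all genes 5.83% and 8.3%), with 22 lower and 6 higher at D7 (33.8% and 9.23%, all genes 5.37% and 9.25%). The lowest at D4 were Id3, an inhibitor of basic helix-loop-helix factors, at -1.71 (SE 0.16, adjusted p = 0.000173) and Errfi1, a feedback inhibitor of the EGF receptor, at -1.67 (SE 0.17, adjusted p = 0.000268). Highest were Ptgs2, the inducible prostaglandin synthase, at 2.54 (SE 0.52, adjusted p = 0.0101) and Trib3, a target of the integrated stress response, at 2.35 (SE 0.19, adjusted p = 7.29e-05). In the hub 1 of the 65 was lower than control at D4 and 4 at D7 (1.54% and 6.15%, all genes 0.105% and 0.17%). There 0 were higher on either day (all genes 0.222% and 0.591%). Of 40 measured cytosolic chaperones and cochaperones, 7 rose and 4 fell at D4 in the LE, while 8 rose and 3 fell at D7. That is 17.5% higher and 10% lower at D4 (all genes 8.3% and 5.83%), and 20% higher and 7.5% lower at D7 (all genes 9.25% and 5.37%). The lower shares rested on 4 and 3 genes and lay near those of all genes. Bag2, a regulator of HSP70, was at 2.4 (SE 0.15, adjusted p = 2.09e-05) and 2.01 (SE 0.15, adjusted p = 6.45e-05). Hspa2, an HSP70 known for its role in the testis, was lower, at -1.60 (SE 0.18, adjusted p = 0.000364) and -1.41 (SE 0.18, adjusted p = 0.000849). Of 14 subunits of the TRiC chaperonin and prefoldin, which fold actin and tubulin, 2 rose in the LE at D4 (14.3%, all genes 8.3%). At D7 7 rose (50%, all genes 9.25%), and 0 were lower on either day (all genes 5.83% and 5.37%). Pfdn4 reached 1.23 at D7 (SE 0.10, adjusted p = 7.75e-05). Among 11 mitochondrial chaperones and proteases, 3 rose and 0 fell at D4 in the LE (27.3% higher, all genes 8.3% higher and 5.83% lower). At D7 4 rose and 1 fell (36.4% and 9.09%, all genes 9.25% and 5.37%).

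Other measures moved with the regions, and their part in these results was not tested. The mean log2 level of 9 basal keratinocyte genes was 11.51 to 11.55 in the LE and 11.76 to 11.83 in control at D4, and 10.63 to 10.73 in the LE and 10.98 to 11.03 in control at D7, with Krt15 and Dst called lower on both days and Itga6 (0.42, adjusted p = 0.0327) and Itgb1 (0.75, adjusted p = 0.00313) called higher at D4. The 7 measured T cell and leukocyte genes averaged 5.27 to 5.36 in the LE and 5.61 to 5.65 in control at D4, and 4.19 to 4.3 in the LE and 4.45 to 4.58 in control at D7. Of those only Thy1 was called lower, and Ptprc, the defining leukocyte gene, lay below the array medians. For 7 melanocyte genes the mean was 5.20 to 5.29 in the LE and 5.49 to 6.94 in control at D4, and 4.08 to 4.11 in the LE and 4.40 to 4.42 in control at D7, with Mitf called lower on both days. The 6 endothelial genes averaged 6.06 to 6.59 in the LE and 5.28 to 6.42 in control at D4, and 5.44 to 5.68 in the LE and 4.37 to 4.69 in control at D7. Of these Tie1 was called higher on both days (1.06 and 1.18), and Cdh5 (2.03) and Cldn5 (0.71) at D7. Of 9 suprabasal genes Krt1, Krt10 and Dsg1a were called lower at D4 and 0 at D7, where the list averaged 8.56 to 8.75 in the LE and 8.9 to 8.94 in control at D4. Of 7 infundibulum and isthmus genes Lgr6 and Plet1 were called lower at D7, where the list averaged 7.55 to 7.57 in the LE and 8.09 to 8.42 in control. Of 7 bulge and outer root sheath genes Fgf18 was called higher on both days (2.1 and 1) and Sox9 lower at D4 (-0.61). Cd68 (1.14) and Cxcr2 (0.79) of 7 measured neutrophil and macrophage genes were called higher at D4. So was Epcam (0.61) of 7 Langerhans cell genes. Of 7 fibroblast genes Dcn was called lower at D7 (-2.59). The 3′ over 5′ difference of the β-actin control probe sets, which can shift with RNA integrity, was -0.11 and -0.19 in the LE, -0.25 and -0.31 in the hub, and -0.35 and -0.35 in control at D4. At D7 it was -0.20 and -0.14 in the LE, -0.25 and -0.20 in the hub, and -0.32 and -0.28 in control. For Gapdh the same difference lay between -0.15 and 0.05 on all arrays.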

How the data were processed

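Basal epidermal cells of CD1 tail skin were profiled on 12 Affymetrix mouse PM strip arrays, 2 for each of 6 groups given by the sample labels. The deposited values are log2 intensities that the authors had normalized with RMA, which corrects background, equalizes the distributions of arrays and summarizes the probes of a set. Sources used here give no software version for it. RMA compresses small differences of dim probe sets, and its use per day or over all arrays is not stated.

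Of 45141 probe sets, the platform annotation ties 28898 to a single gene, 551 to several and 15588 to none, and 104 are controls. The brightest probe set by mean stood for each of 17097 genes, with no filter on dim values. A model of 6 groups was run with limma 3.58.1 (R 4.3.3), on 6 residual degrees of freedom and a prior of 3.77. Arrays of a group were treated as independent, as the labels call them biological replicates, and if they were not, p-values measure technical spread only. The number of arrays limits the precision. Separate fits of all probe sets adjusted p over all probe sets.

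The 33 genes and the wider lists were chosen with earlier results of these data known. Every gene of the list was accounted for. Array values were given, on at least 1 day, for genes called in at least 1 within-day comparison. These were at most 4 with the largest change in each role group, with any called gene that opposed its group. Array values were also given for Trib1, Gadd45a, Hspa1b and Hspa8, and the other uncalled genes were given by fold change. Up to 4 called genes were named from each wider list. Promoters of 250 bases before each start were taken from RefSeq (GRCm38.p6). Alternatives were another normalization, the mean of all probe sets, other priors, a filter, a replicate block, a fit per day, the 2-fold rule of the methods and leaving out each array. The procedure was tested on simulated data.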

Additional observations from a re-analysis of the deposited data

How the results depend on the processing

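None of the 33 called within-day differences of a listed gene changed sign under the alternatives run, other probe sets included. Of the 147 differences that were not called, 41 changed sign under at least 1 alternative (other single probe sets aside), 39 of them when 1 array was left out, and all 41 were at most 0.21 in size. Gadd45a, at 0.15 for the LE over control at D4, was -0.45 without control D4 replicate 1, and Gadd45b, at -0.18, was 0.14 without LE D4 replicate 2. Another probe set turned the sign of 15 uncalled differences, up to 0.38 in size. By the fold rule of the methods, 2 genes passed for the LE over control at D4 and 1 at D7, against 11 and 14 called in limma, 1 for the LE over the hub at D4, and 0 for the LE over the hub at D7 and for the hub over control on either day. In the main fit 0.328% of all genes were called for the hub over control at D4, 0.76% at D7, and 2.73% for the LE over the hub at D7. With probe sets of a gene averaged, 1 listed gene was called for the hub over control at D4, 3 at D7, and 4 for the LE over the hub at D7 (all genes: 0.409%, 0.807% and 3.15%). A trended and robust prior called 6 for the hub over control at D4, 4 at D7 and 4 for the LE over the hub at D7 (all genes: 0.866%, 1.2% and 3.93%). With the arrays of that day only, the hub over control at D4 gave 0 and the LE over the hub at D7 gave 1 (all genes: 0.00585% and 4.24%). For the LE over control that fit called 7.91% of all genes at D4, against 14.1% in the main fit, and 16.4% at D7, against 14.6%. That fit lost 11 of the 33 calls and gained 4. For the LE over control it lost Egr2, Csrnp1 and Dusp1 at D4 (adjusted p = 0.0742, 0.0559 and 0.0583). At D7 it lost Csrnp1, Ier5, Nfkbia and Gadd45g (adjusted p up to 0.0701). Btg2 was lost for the LE over the hub at D4 (adjusted p = 0.13). Leaving out each array in turn gave 8 to 11 genes for the LE over control at D4 and 4 to 15 at D7, the lowest without LE D7 replicate 1. It gave 0 to 2 for the hub over control at D4 and 0 to 1 at D7, and 2 to 3 for the LE over the hub at D4 and 0 to 2 at D7. For each change between days it gave 0 in every fit. In groups that a left-out array reduced to 1, that array was assumed to vary like the others. For each within-day comparison, leaving out an array of either of its groups also lowered the count over all genes. The labels number the arrays of a group. A replicate block within the day called 2 genes for the hub over control at D7 (all genes: 0.702%) and moved no other count by over 1.5 times. Under that block the LE call of Nfkbia at D7 was lost (adjusted p = 0.0595), and Egr3 at D4 (adjusted p = 0.0314) and Hsph1 at D7 (adjusted p = 0.0468) for the LE over control and Ppp1r15a for the hub at D7 (adjusted p = 0.0443) were gained. Differences between the 2 numbers correlated across regions with r of 0.17 to 0.245 at D4 and 0.00234 to 0.0666 at D7. With 2 numbers in a group and no label of a shared animal or day, the numbers were not taken to pair the arrays. Quantile normalization of all 12 arrays and leaving out dim genes moved no count by over 1.5 times. Ier5 was dim on all arrays and was dropped by that filter.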
